A study of Mus musculus with 4 samples.

Results

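The regions described here are the CpG-rich promoter peaks of Gata4 that were listed in DKO Flk1(+) mesoderm cells and had no listed counterpart in WT Flk1(+) mesoderm cells. A peak of the DKO list was a member when no peak of the WT list lay within 500 bp of its position, when the authors placed it within 1000 bp of the 5′ end of a RefSeq gene, and when the window of 250 bases to either side of the position held 20 or more CpGs. Of the 22733 peaks of the DKO list, 5277 met all parts of the rule. The members were chosen by measured values, the absence of a listed WT peak and the presence of a DKO peak, so heights and ratios of the members describe them and test nothing.

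Each condition had 1 library, and no comparison below takes account of the spread between libraries. Intervals are 95% Wilson intervals on counts of peaks or genes, and they cover counting error within a library only. WT and DKO Flk1(+) cells were differentiated on OP9 stroma to day 4.5, given 100 nM dexamethasone (Dex) for 3 hr and sorted with magnetic beads for the receptor Flk1, and the background libraries were made from undifferentiated ES cells of either genotype that had received no Dex. All 4 cultures carried Gata4GR, a fusion of Gata4 with the hormone-binding part of the human glucocorticoid receptor, transcribed from the CAG promoter. The WT line, clone J1G4.2 in its label, derives from J1 ES cells and the DKO line, clone 16G4.3, from ES cells without Dnmt3a and Dnmt3b, the enzymes that set new methylation on CpGs. Each genotype is a single clone, so a difference between clones and a difference between genotypes cannot be told apart. Gata4 was precipitated with a mixture of 3 antibodies. The lists hold no expression values, so neither the sorted cell type nor the Dnmt3 deletions could be checked here, and the DKO Flk1(+) library had more mapped reads than the WT Flk1(+) library, whose part in the absence of WT peaks was not tested.

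Gata4 belongs to a family of zinc finger proteins that bind DNA at words built around GATA and that direct endoderm and heart development. CpG-rich promoters are mostly unmethylated in all tissues, and many serve housekeeping genes, whereas some at developmental and germline genes gain methylation as cells differentiate. Such promoters commonly carry GC boxes, CCAAT boxes (bound by NF-Y) and ETS sites, and GATA words are rarer in them because they are rich in G and C.

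The members with a GATA word near the peak position are the exception among the 5277, and 8 of them are printed first. Apart from 1 member whose sequence is not printed, they are the members of best rank in the authors' order (rank 1 is the best) that hold AGATAA or TGATAA, on either strand, with its centre within 50 bases of the peak position. Capitals mark these words as read on the plus strand of mm9, so that a word on the minus strand appears as TTATCT or TTATCA, and sequences that would have run into an annotated exon were cut to 61 or 29 bases.
Espl1, chr15:102126564-102126684: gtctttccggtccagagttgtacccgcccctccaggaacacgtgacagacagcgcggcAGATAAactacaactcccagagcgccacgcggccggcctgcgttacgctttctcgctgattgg
Plvap, chr8:74035706-74035826: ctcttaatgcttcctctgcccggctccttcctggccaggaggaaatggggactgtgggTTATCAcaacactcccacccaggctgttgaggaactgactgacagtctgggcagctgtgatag
9130023H24Rik, chr7:135381515-135381543: ttccgactcgcaAGATAActgcggcggcg
Rbpms, chr8:35041005-35041125: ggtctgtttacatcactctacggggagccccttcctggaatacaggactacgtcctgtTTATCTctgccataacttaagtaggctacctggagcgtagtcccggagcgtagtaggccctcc
Ung, chr5:114580985-114581013: cgcgcaccccgtTTATCAgccagactggg
Fam160b1, chr19:57435048-57435076: atttccgggtttTGATAAggataagctat
Rasal1, chr5:121098714-121098742: gcccgggcggtgTTATCTccgcgcctccc
Lrp10, chr14:55082819-55082939: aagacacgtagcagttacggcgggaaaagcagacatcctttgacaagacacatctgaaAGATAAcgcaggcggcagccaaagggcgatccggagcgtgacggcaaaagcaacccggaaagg
The word lay 2.5 bases from the peak position at Rbpms, an RNA-binding protein gene, and 42.5 bases from it at Espl1, which encodes the separase that cuts cohesin in anaphase. The stretch shown for Espl1 held 12 CpGs and that for Plvap, a gene of endothelial cells, held 1.

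The more common kind of member is shown by the 3 of best rank whose window holds neither word. Capitals mark the CpGs here, on the plus strand of mm9, and each stretch is centred on the peak position.
Cdca2, chr14:68333565-68333593: gcagggagacctcCGtggatccCGgaaaa
Tnrc6b, chr15:80541508-80541628: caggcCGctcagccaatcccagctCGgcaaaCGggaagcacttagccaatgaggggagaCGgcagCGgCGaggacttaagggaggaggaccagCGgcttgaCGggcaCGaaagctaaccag
Ranbp3, chr17:56812595-56812655: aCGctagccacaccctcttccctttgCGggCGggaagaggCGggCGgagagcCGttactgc
The third set holds tall members, the 3 tallest whose central 121 bases stay outside annotated exons. Capitals mark CCAAT on either strand (ATTGG when read on the plus strand) and TTTGAA on either strand (TTCAAA on the plus strand), the core of the cell-cycle homology element of mitotic genes.
Ube2c, chr2:164595231-164595351: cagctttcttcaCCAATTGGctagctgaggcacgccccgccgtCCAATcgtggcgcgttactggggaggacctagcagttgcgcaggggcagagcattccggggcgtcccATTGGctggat
Bag4, chr8:26895812-26895932: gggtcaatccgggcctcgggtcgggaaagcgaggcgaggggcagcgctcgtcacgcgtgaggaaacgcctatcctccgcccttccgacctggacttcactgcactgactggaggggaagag
Ect2, chr3:27052825-27052945: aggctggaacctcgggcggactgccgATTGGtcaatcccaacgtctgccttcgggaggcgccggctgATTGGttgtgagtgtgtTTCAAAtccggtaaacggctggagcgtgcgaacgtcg
The stretch of Bag4 held no match to either word, and both Ube2c and Ect2 held more than 1 CCAAT box.

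The members were about as tall as the list at large, but lower in ratio and rank. Height is the value of the authors' smoothed read profile at the peak, and the list starts at a height of 5. The heights of the members in the DKO Flk1(+) library ran from 5.00 to 74.3 with a median of 7.17 and quartiles at 5.91 and 9.42, and 1435 of the 5277 (27.2%) were below 6. All peaks of the DKO list had a median height of 6.91, with 32.1% below 6, and a height of 10 or more was reached by 20.7% of members and 20.5% of all peaks. Their heights in the DKO ES library had a median of 1.83, with quartiles at 1.46 and 2.41. The ratio of both heights, in which an ES height below 1 is taken as 1, had a median of 3.84 where the list starts at 3, and 55.8% of the members were below 4, against a median of 4.37 and 40.7% below 4 in all peaks. The median rank was 13384 among 22733, and 177 members (3.35%) stood among its best 10%.

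The closest peaks for comparison are the 4539 shared CpG-rich promoter peaks, which meet the same rule except that a WT peak lies within 500 bp. Their median height in the DKO Flk1(+) library was 8.58 and their median rank 10240, so members were the lower of both kinds. Among all 9816 CpG-rich promoter peaks of the DKO list, 5277 (53.8%) had no WT peak within 500 bp, against 12483 of all 22733 peaks (54.9%), so that lacking a WT peak was about as common at CpG-rich promoters as in the list at large. The share fell with height. It was 66.9% (95% interval 65.0 to 68.7) in the lowest of 4 equal classes of height, 59.4% and 48.7% in the next, and 40.1% (38.1 to 42.0) in the highest class. At the shared peaks the WT peak had a median height of 9.47 in WT Flk1(+) cells and 2.44 in WT ES cells. These heights stand on the scale of another list, and whether the authors scaled them for depth is not given in the sources used here.

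**Figure D1:**
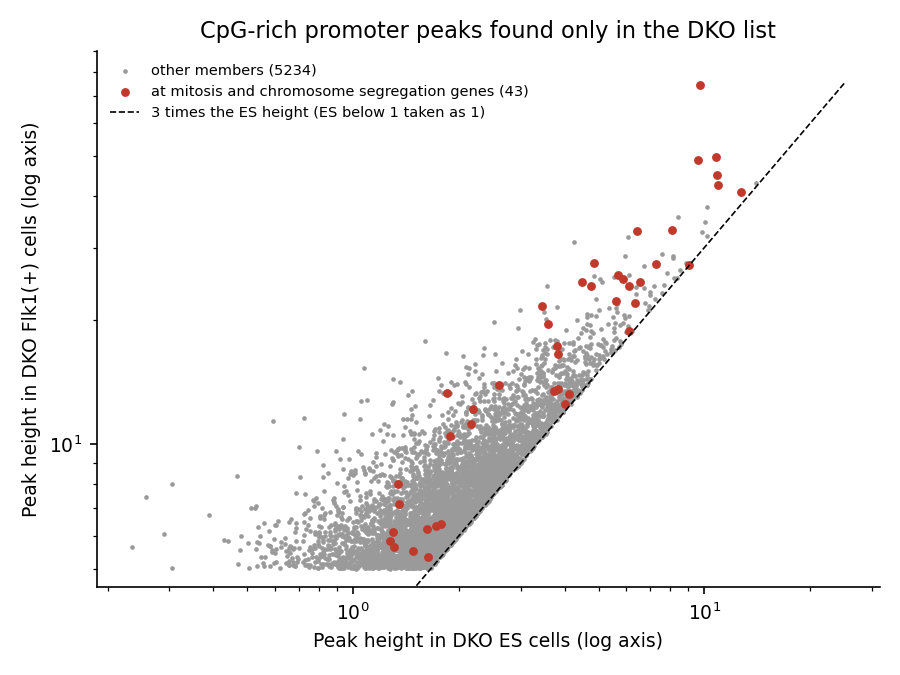
Height of each of the 5277 members in DKO ES cells (x axis) and DKO Flk1(+) cells (y axis), both on log axes without units. Red points are the 43 members at genes of a mitosis and chromosome segregation list chosen after the heights were seen, grey points the others, and the dashed line is the ratio of 3 at which the list starts. Red points include 8 of the 12 tallest members.

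**Figure D2:**
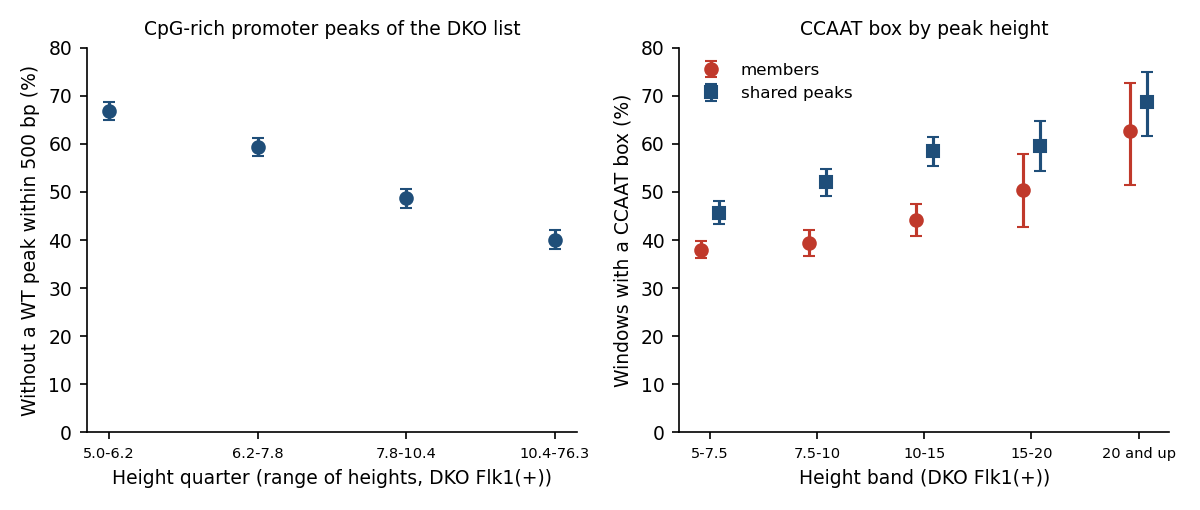
Left, share of CpG-rich promoter peaks of the DKO list with no WT peak within 500 bp, in 4 classes of height in DKO Flk1(+) cells. Right, share of windows with a CCAAT box by height band, for members (red circles) and shared peaks (blue squares). Bars are 95% Wilson intervals. The share without a WT peak fell from 66.9% to 40.1%, and the share with a CCAAT box rose with height in both kinds of peak.

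The peaks beside each threshold show what the rule took in and left out. Just inside the limit of 500 bp were the members at Fam195b, 1 bp beyond the limit with a height of 11.04, and at 4930528A17Rik, at 502 bp from the WT peak and with 6.94. Just outside it were the peaks at 0610009B22Rik and Use1, both at 499 bp, with heights of 8.70 and 10.0. The members farthest from a gene start were those at Nfkb2, at 1000 bp with a height of 5.56, and at Tgfbr3, at 997 bp and 6.22, and the peaks at Ssbp4 and Ptprj, at 1001 bp, stayed out with 13.7 and 7.69. Plvap and Ccdc124 entered with 20 CpGs and heights of 16.4 and 8.03, whereas Lrrc49 and Hist1h1b, with 19, had 9.95 and 7.79.

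Most members were far from any WT peak. The nearest one lay at a median of 27322 bp, with quartiles at 7342 and 64930 bp, and 78.4% of the members were over 5 kb from it. In a further 585 (11.1%) the nearest WT peak lay between 500 and 1000 bp, on or beside the same promoter. Members also came in groups. Another member lay within 1000 bp of 2367 of them (44.9%), and within 250 bp of 1106 (21.0%), so the 5277 peaks are not independent promoters. Windows of members within 250 bp of each other overlap, so a word can count more than once. The intervals on shares of windows and words take no account of this. They named 4367 genes within 1 kb, of which 3105 had 1 member, 1000 had 2 and 262 had 3 or more. Sin3a, the scaffold of a histone deacetylase complex, and Thap11, a zinc finger regulator, had 5 each. The 5 members at Sin3a had heights of 7.27 to 9.89 and those at Thap11 5.08 to 13.1.

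Members lay on the gene side of the start more often than shared peaks did. By the authors' RefSeq distances, 40.5% of members (39.2 to 41.8) were upstream of the gene and 59.4% inside it, against 53.8% (52.3 to 55.2) upstream among shared peaks. By the starts of GENCODE transcripts, 5188 members lay within 1 kb of a start, at a median of 34 bp inside the gene, and the 4497 shared peaks within 1 kb had a median of -14, that is 14 bp upstream. The median distance to the start regardless of side was 171 bp for members and 131 bp for shared peaks. The annotation put 28.1% of members outside genes, 26.2% in a UTR, 25.9% in an intron, 16.1% in a coding exon and 3.70% in another exon. Coding exons held 9.96% of shared peaks. In base composition both kinds were close, with a median of 39 CpGs in members and 40 in shared peaks and a median GC content of 63.5% and 62.9%.

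**Figure D3:**
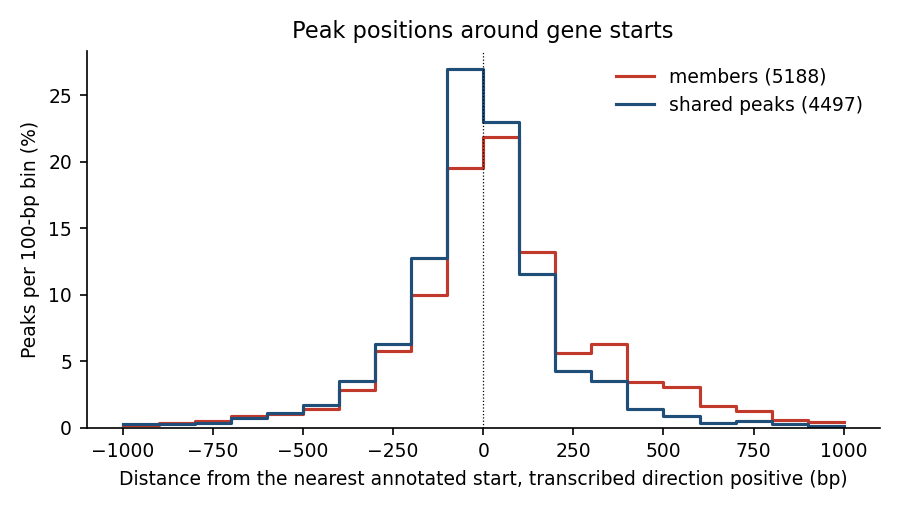
Position of members (red, 5188) and shared CpG-rich promoter peaks (blue, 4497) around the nearest start of a GENCODE protein-coding transcript, as the percentage of peaks per 100-bp bin, with the transcribed direction positive. In the 100 bp just upstream lay 19.5% of members and 27.0% of shared peaks, and members were the more frequent from 100 bp inside the gene onwards.

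GATA words were about as rare in members as at CpG-rich gene starts without a listed peak. AGATAA or TGATAA, on either strand, stood in 553 of the 5277 windows (10.5%, 9.68 to 11.3). The share was 10.1% (9.23 to 11.1) at the 4103 CpG-rich gene starts with no peak in either list, with windows of the same length centred on the start, and 9.99% at all 12043 CpG-rich starts. It was 13.2% (12.3 to 14.3) in shared peaks and 38.1% in all peaks of the DKO list. Windows 2 kb to either side of the members held the words in 38.9%, and only 8.23% of these windows held a GC box, against 79.3% of members.

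The central share of the words in members was near that of even placement. It was above that of gene starts without a peak, whose windows were centred on the start and not on a peak. Of their matches 19.2% (16.3 to 22.6) fell within 50 bases of the peak position, where even placement would put 20.2%. The central share was 23.4% (20.3 to 26.7) in shared peaks and 42.3% in all peaks of the DKO list. Around CpG-rich gene starts with no listed peak it was 11.1% (8.57 to 14.3), and around all CpG-rich starts 13.4%, in windows centred on the start. Within the members' windows, read on the plus strand of mm9, the matches were not evenly spread. The 25-bp bins held 27 to 33 matches in the 50 bases to either side of the peak position. On the side of lower coordinates they held 17 to 21 from 50 to 125 bases and 35 to 39 from 175 to 250 bases. On the other side they held 36 from 50 to 75 bases, 27 from 75 to 100, 17 from 100 to 125 and 41 to 48 from 175 to 250. Tall members had higher central shares, on few matches: of the 17 matches in the 161 members with heights from 15 to 20, 52.9% lay within 50 bases, as did 50% of the 6 matches in the 75 members of 20 or more. In shared peaks of the same bands 31.3% and 31.1% did. The share of windows with a word fell with CpG content. The words stood in 18.6% of members with 20 to 29 CpGs, 12.6% with 30 to 39, 7.99% with 40 to 49 and 3.64% with more, and in 22.8%, 13.7%, 11.96% and 6.07% of shared peaks of the same classes. Height did not follow the words. Members with a match had a median height of 7.06 and those without 7.18. In 5 classes of rank, which is not an order of height, the share with a match was 9.85% in the 1056 members of best rank. It was 10.8%, 11.8% and 11.8% in the next classes and 8.15% in the 1055 members of lowest rank. The 908 shared peaks of best rank had 16.0%.

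The members with the most words were at Pik3c2g, a phosphoinositide kinase gene, Zmat4 and Usp28, a deubiquitinase gene, each with 3. Their heights were 7.04, 8.27 and 5.10. Plvap and 9130023H24Rik followed with 2 words each and heights of 16.4 and 10.5. All other members with a match had 1 or 2 words.

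**Figure D4:**
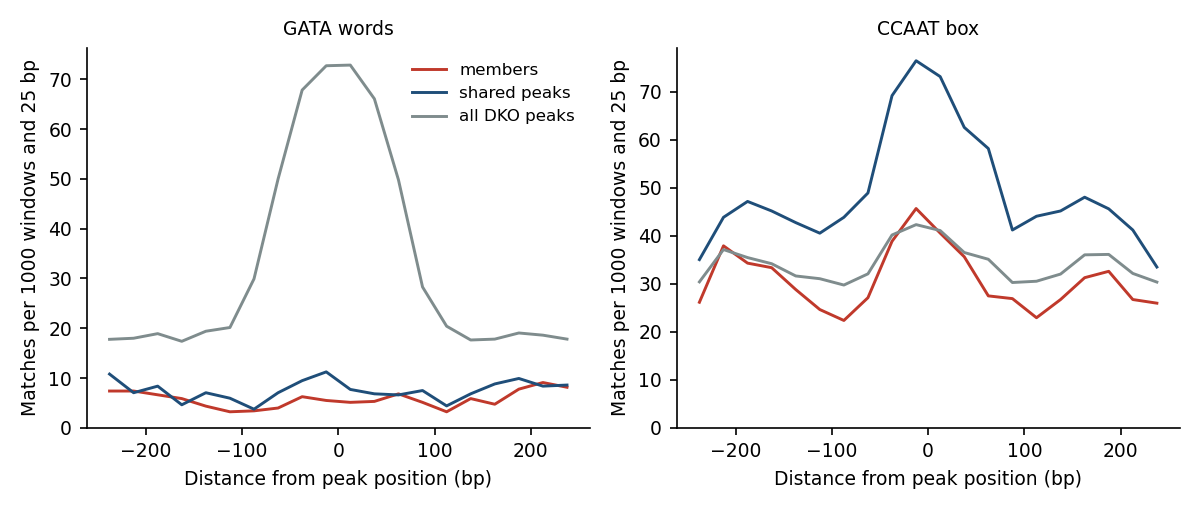
Matches per 1000 windows and 25 bp by distance from the peak position, for GATA words (left) and the CCAAT box (right), in members (red), shared CpG-rich promoter peaks (blue) and all peaks of the DKO list (grey). GATA words form a central mound in all DKO peaks, with 42.3% of matches within 50 bases, against 19.2% in members. The centre in members stands above the bins from -125 to -50 bp, but not above the bin from 50 to 75 bp. It is below the window's edges. The CCAAT box has a central mound in members, with 26.2%.

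The CCAAT box and the E-box had a larger central share in the members than even placement gives. The CCAAT box stood in 40.04% of them (38.7 to 41.4) and in 52.5% of shared peaks. It stood in 37.0% of CpG-rich starts with no listed peak and in 43.7% of all CpG-rich starts, more than in members. Of its matches in members 26.2% (24.8 to 27.8) fell within 50 bases of the peak position, where even placement would put 20.3%. The central share was 28.9% in shared peaks, 22.1% around CpG-rich starts with no listed peak and 24.7% (23.8 to 25.7) around all CpG-rich starts. The E-box CACGTG, bound by Myc and USF proteins, stood in 14.1% of members with 25.3% (22.5 to 28.3) of its matches central, where even placement would put 20.2%, and it had a central share of 34.3% around CpG-rich starts with no listed peak. The ETS word CCGGAAG stood in 22.97% with 20.8% central, the GC box GGGCGG in 79.3% with 16.5% central, and TATAAA in 5.97% with 11.8% central. The words of NRF1 (GCGCATGCG), YY1 (AAGATGGCG), CRE-binding proteins (TGACGTCA) and ZBTB33 (TCTCGCGA) each stood in under 5% of members, as did those of AP-1 (TGACTCA) and the half-site pair ACANNNTGT bound by glucocorticoid receptor, at 4.09% and 4.28%. NRF1 words stood in 3.41% of members and 6.74% of shared peaks. The words were searched on both strands, and a match is a stretch of letters and no measurement of binding.

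Genes of mitosis, by the list described below, had 8 of the 12 tallest members and 20 of the 75 with a height of 20 or more. The highest was at Cdca2, which brings protein phosphatase 1 to chromosomes in anaphase, with a height of 74.3 in DKO Flk1(+) cells and 9.72 in DKO ES cells, and the nearest WT peak was 196380 bp away. Cdca5, which encodes the cohesin protector sororin, had 49.7 and 10.8. Hjurp, the chaperone that loads the centromeric histone CENP-A, had 49.0 and 9.61. Ube2c, a ubiquitin-conjugating enzyme of the anaphase-promoting complex, had 44.9 and 10.9. Bag4, a cochaperone gene, had 43.1 and the highest ES height of any member, 14.04. Ect2, which acts in cytokinesis, had 42.5 and 10.95, and Ccnb2, a mitotic cyclin, had 40.9 and 12.7. Each of these peaks was thus tall in undifferentiated DKO ES cells without Dex as well.

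A list of 87 mitosis and chromosome segregation genes was drawn up after these heights were seen, so its counts describe the pattern that prompted it. Of its genes 84 had a CpG-rich start, and 30 of those (35.7%, 26.3 to 46.4) carried a member, near the 32.3% (3894 of 12043) of all genes with a CpG-rich start. A shared peak stood at 47 of the 84 starts (56.0%). The 43 members at listed genes had a median height of 18.8 (quartiles 10.8 and 26.4), a median ES height of 4.001 and a median ratio of 4.31. The other members had 7.15, 1.82 and 3.84. Listed genes took 8 of the 12 tallest members and 20 of the 75 (26.7%) with a height of 20 or more, against 9 of the 2906 (0.310%) below 7.5. Among shared peaks of 20 or more they took 24 of 182 (13.2%, 9.02 to 18.9). The 75 tallest held CCAAT in 62.7% (51.4 to 72.7), TTTGAA in 28.0% (19.103 to 39.04) and GATA words in 6.67% of windows, and the 2906 lowest held them in 38.0%, 13.1% and 10.7%. Shared peaks of 20 or more held CCAAT in 68.7%, TTTGAA in 34.6% and GATA words in 20.3%. The word TTTGAA was also chosen after the heights were seen, so its shares describe these windows and test nothing.

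The order by rank brought up other genes. After Cdca2 at rank 85 came Tnrc6b, of microRNA silencing, at rank 177 with a height of 17.9 and an ES height of 1.61. Ranbp3, a cofactor of nuclear export, followed at 305 with 15.3 and 1.08, the highest ratio of any member at 14.2. Fancf, of DNA crosslink repair, stood at 401 with 14.4 and 1.30, and Dhx34, a helicase of nonsense-mediated decay, at 421 with 14.2 and 1.36. Lsm4, of the splicing and decay of RNA, stood at 451 with 30.9 and 4.25. Hjurp was at 480, Wbp1 at 509 with a height of 13.5, Tmbim4 at 558 with 13.2, 2610204G22Rik at 606 with 12.8, Cdca5 at 607 and Rbm4b at 626 with 12.7. Of these 12 members of best rank, only that at Fancf held a GATA word, more than 50 bases from the peak position. Of all members 10.5% held one. The lowest members, at Hoxd11, Kars, Fam168a, Bad and Rpl39, were all listed at a height of 5.00, with ES heights of 1.02 to 1.55.

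Genes with a CpG-rich start were then counted by function. Of 22350 protein-coding genes 12043 had 20 or more CpGs around the start, 3894 of these (32.3%) carried a member within 1 kb and 3403 (28.3%) carried a shared peak. At 3311 of the 3894 (85.0%) no WT peak of any kind lay within 1 kb of the start. Head-to-head genes, which share a promoter with a gene on the other strand within 1 kb, carried a member in 38.7% (36.3 to 41.3) and the other genes in 31.4% (30.6 to 32.3). For shared peaks these shares were 48.3% and 25.5%. Starts with 20 to 29 CpGs carried a member in 23.2% and those with 50 or more in 35.7%.

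Among 16 lists of genes, those of cytosolic ribosomal proteins and of splicing factors had the highest shares with a member, and both also stood above all CpG-rich starts in their share with a shared peak. Of the 75 cytosolic ribosomal protein genes with a CpG-rich start 44 had a member (58.7%, 47.4 to 69.1), against 32.3% of all such genes, and 39 of the 44 had no WT peak within 1 kb, against the 85.0% of all genes with a member. A shared peak stood at 44.0% of these ribosomal protein genes and at 45.5% of the splicing factor genes, against 28.3% of all CpG-rich starts. Their best-ranked members were at Rpl37, with a height of 10.6, Rpl5, with 10.6, and Rpl7, with 9.80. Splicing factor genes followed with 37 of 77 (48.1%, 37.3 to 59.0), led by Lsm4, by Snrnp70 of the U1 particle, with a height of 24.2, and by Lsm5, with 11.6. Of the 72 oxidative phosphorylation genes 30 had a member (41.7%), among them Sdha (14.8), Ndufa8 (9.25) and Ndufa4 (8.73), with heights in brackets. Transcription machinery genes had 29 of 73 (39.7%), with Taf3 (9.69), Taf9 (13.3) and Med22 (9.19) first. Mitochondrial ribosomal protein genes had 26 of 70 (37.1%), with Mrps28 (9.85), Mrpl39 (9.66) and Mrpl13 (9.46). Aminoacyl-tRNA synthetase genes had 13 of 35 (37.1%), with Iars2 (7.94), Dars (11.4) and Farsa (22.1), and proteasome genes 11 of 34 (32.4%), with Psma3 (9.86), Psme3 (13.98) and Psmd4 (8.15). The intervals of the last 5 lists take in the share of all CpG-rich starts.

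DNA replication genes had more shared peaks than all CpG-rich starts, but not more members. Of 46 with a CpG-rich start 13 had a member (28.3%, 17.3 to 42.5), an interval that takes in the 32.3% of all such starts. A shared peak stood at 28 (60.9%), against 28.3% of all CpG-rich starts. That share was also high in the mitosis list (56.0%) and in transcription machinery genes (50.7%). The best-ranked members at DNA replication genes were at Mcm2 (10.3) and Mcm6 (17.7), of the replicative helicase, and at Pola2 (7.97), of the primase complex.

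**Figure D5:**
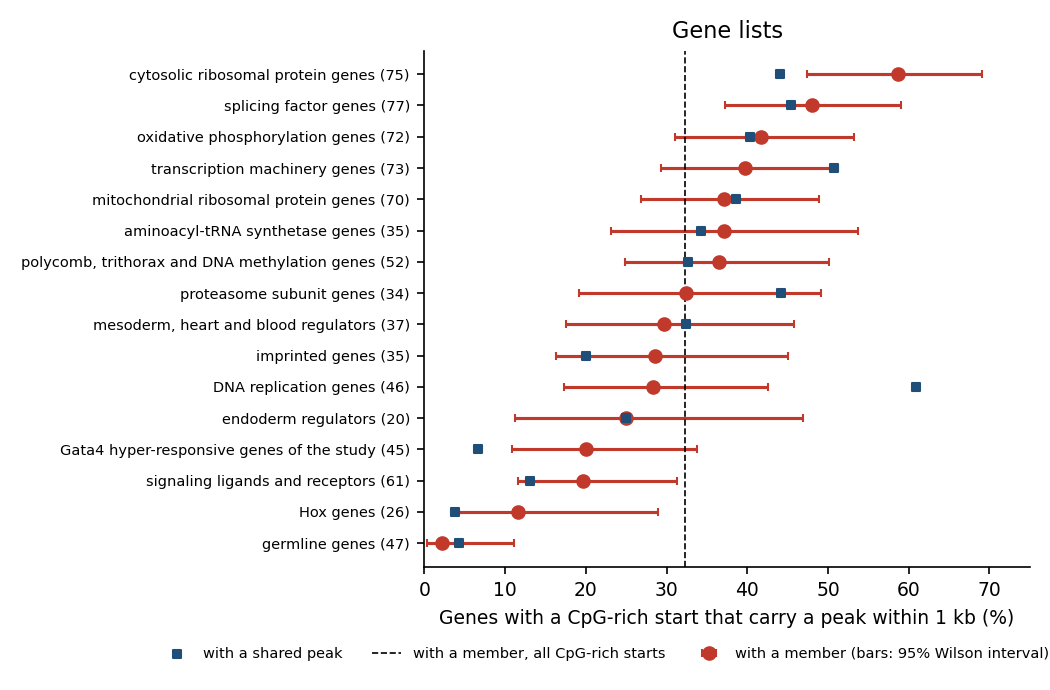
Share of genes with a CpG-rich start (number in brackets) that carry a member (red circles, with 95% Wilson intervals) or a shared peak (blue squares) within 1 kb of the start, for 16 gene lists. The dashed line is the 32.3% of all 12043 CpG-rich starts that carry a member. Cytosolic ribosomal protein genes (58.7%) and splicing factor genes (48.1%) lie above it and germline genes (2.13%) and Hox genes (11.5%) below.

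Germline, Hox and signaling genes carried few members and few shared peaks. Of 47 germline genes with a CpG-rich start only Tdrkh, of the piRNA pathway, had one (2.13%, 0.377 to 11.1), with a height of 7.01, and 41 had no peak in either list. Of 26 Hox genes 3 had a member (11.5%, 4.003 to 28.98), among them Hoxa5 with 2 members at 6.24 and 6.48 and Hoxa13 at 6.53. The member that the authors place at Hoxd11 lay farther than 1 kb from the GENCODE start of that gene and did not count here. Signaling ligands and receptors had 12 of 61 (19.7%, 11.6 to 31.3), with Fzd1 and Wnt3 of the Wnt pathway at 8.03 and 6.28 and the Wnt coreceptor Lrp6 at 6.02. These 3 lists had intervals wholly below 32.3%. A shared peak stood at 4.26% of the germline, 3.85% of the Hox and 13.1% of the signaling genes, against 28.3% of all CpG-rich starts.

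Of the 20 endoderm regulators with a CpG-rich start 5 had a member (25%, 11.2 to 46.9), a share whose interval takes in the 32.3% of all CpG-rich starts, and 5 had a shared peak. None of these members was above a height of 7.11. None of the 5 genes had a WT peak within 1 kb of the start, which held for 85.0% of all genes with a member. Onecut2, a liver and pancreas factor, had 7.11 in DKO Flk1(+) and 1.13 in DKO ES cells. Sox7, of primitive endoderm and endothelium, had 6.08 and 0.999, 204 bp upstream of its start. Foxq1 had 6.52 and 1.89, Foxa3 had 2 members at 5.11 and 5.19, and Cdx2, of the hindgut, had 5.01. The Foxa3 members lay 685 and 574 bp from a WT peak that was itself farther than 1 kb from the start. Sox7, Foxq1 and Cdx2 held 1 GATA word each, and Onecut2 and Foxa3 held none, where 10.5% of all members held a word. The word of Sox7 lay 175.5 bases from the peak position, in the stretch chr14:64562468-64562496, printed with the word in capitals.
Sox7, chr14:64562468-64562496: gtggcccgaagcTGATAAataagggccaa
Among other promoters that the study took up, Sord had a member with a height of 9.44, an ES height of 2.51 and 1 GATA word, and no member had Grk5, Mrap, Thbs4 or Cldn7 as its nearest gene.

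Of the 37 mesoderm, heart and blood regulators with a CpG-rich start 11 had a member (29.7%, 17.5 to 45.8), close to all genes. Zfpm1, a cofactor of GATA proteins in blood, had 3 at 7.61, 13.1 and 9.04, and its relative Zfpm2, a cofactor in the heart, had 1 at 6.49. Mef2a, of muscle, had 2 at 8.37 and 7.88, and Mef2d had 1 at 7.10. The Notch effectors Hey1 and Hey2 had 9.92 and 6.27. Irx5 had 2 at 6.97 and 6.41, and Irx3 had 2 at 5.54 and 5.89. Snai1, Twist1 and Foxc2, of mesoderm and mesenchyme, had 7.69, 7.17 and 5.05. At 9 of the 11 genes no WT peak lay within 1 kb of the start, against 85.0% over all genes with a member. Mef2d and Foxc2 had a WT peak there, and Zfpm1 carried a shared peak within 1 kb of its start. None of the 16 members of this list held a GATA word, which only 10.5% of all members held.

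Of the 94 genes that the study lists as hyper-responsive to Gata4 in DKO mesoderm, 45 had a CpG-rich start and 9 of these had a member (20%, 10.9 to 33.8), while 3 had a shared peak and 24 no listed peak. The interval takes in the 32.3% of all CpG-rich starts. The study chose this list by expression in cells of the same clones, and it is not independent of the genotype. The 9 genes were Itfg3 (6.89), Cited4 (5.94 and 5.60), Leprel4 (11.5), Foxo3 (5.76), Sord (9.44), Tbc1d24 (7.33), Clgn (8.62), Plekhf1 (7.51 and 6.10) and Foxq1 (6.52), with member heights in brackets. At 8 of the 9 no WT peak lay within 1 kb of the start, against 85.0% over all genes with a member.

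Of 52 polycomb, trithorax and DNA methylation genes with a CpG-rich start 19 had a member (36.5%, 24.8 to 50.1). The interval takes in the 32.3% of all CpG-rich starts. Eed, of polycomb repressive complex 2, had 4 at heights of 5.27 to 8.91. Mbd2, a reader of methylated CpGs, had 1 at 7.36, and Setd1a, a histone H3 methyltransferase, had 2 at 17.1 and 11.9. Imprinted genes had a member at 10 of 35 (28.6%, 16.3 to 45.1), an interval that also takes in 32.3%. The best-ranked members of this list were those at Mcts2 (8.46), Commd1 (15.5) and Phlda2 (6.31).

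Members were unevenly spread over the chromosomes. On chromosome 8, 325 of 682 CpG-rich starts carried a member (47.7%, 43.9 to 51.4), and on 18 other chromosomes the share ran from 26.9% to 39.3%. The X chromosome had 40 of 361 (11.1%). Other kinds of peak were also rare there: 15.5% of its CpG-rich starts carried a shared peak and 23.5% any WT peak. Over all CpG-rich starts these shares were 28.3% and 36.6%. The 453 members on chromosome 8 had a median height of 8.31 and a median ES height of 2.06, against medians of 6.68 to 7.81 and 1.73 to 2.06 on the 18. Chromosome 8 held 9.27% of all peaks of the DKO list and 6.69% of those of the WT list. At the 729 peaks of chromosome 8 that were shared with the WT list, the DKO height was 0.706 times the WT height in Flk1(+) cells (median) and 0.560 times in ES cells, against 0.760 to 0.860 and 0.647 to 0.876 on the 18 chromosomes. These ratios join values of lists that were made separately, and their part in the number of members on chromosome 8 was not tested. Without chromosome 8, 4824 members remained and 31.4% of CpG-rich starts carried one.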

How the data were processed

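A sequencing company mapped the Gata4 ChIP-seq reads of 4 libraries to mm9, and the submitters' processing notes name CASAVA 1.8.1 and cutadapt. The authors called peaks with DNAnexus tools (kernel bandwidth 30, candidate threshold 5, enrichment 3 against ES cells of that genotype). The deposited lists hold 2 columns of signal, the profile height in the Flk1(+) and the ES library. The deposited ratio of these heights takes an ES height below 1 as 1, which was checked for all 43143 peaks. The authors' q-value, deposited as −log10, gives the order of the lists, and the deposited rank was used. The columns carry no library name, so the number of peaks told the lists apart. The aligner, the handling of duplicates and the scaling of heights are not given in the sources used here. With 1 library per condition no test was run, and the part of depth in which low peaks were listed was not tested.

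The deposited windows of 250 bases to either side equal the mm9 bases centred on the position for all 43143 peaks. Distances to RefSeq genes are the authors'. Gene starts, exons and UTRs came from GENCODE vM1, and 981 of 993 listed symbols were placed in it, with older symbols matched through RefSeq. The members, the 16 gene lists and the words were chosen with earlier results of these data known, and the mitosis list and the word TTTGAA after the heights were seen. Named genes are the nearest to the 12 members of best rank, to those with the most GATA words, the lowest and tallest heights and the highest ES heights, and to the peaks beside each threshold, and those of the gene lists. The sequence at Wdr7, on chromosome 18, is not reported here. Other thresholds, a looser word and a narrower window were tried. Python 3.11.15, NumPy 2.4.6, pandas 2.3.3, SciPy 1.17.1, pysam 0.24.0 and Matplotlib 3.10.9 were used, and the steps were tested on simulated data.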

Additional observations from a re-analysis of the deposited data

How the results depend on the processing

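No paired analysis was possible because each condition had 1 library. The number of members was 4208 to 6223 under the other limits of distance and CpG content, and 2153 among the better-ranked 50% of the DKO list. The share of members with a GATA word was 20.05% with AGATAG and TGATAG added, 3.98% within 100 bases of the peak position and 8.41% with 30 or more CpGs, and it stayed within its interval under the other settings tried. The central share of the words ran from 18.4% to 21.3% over all settings tried and stayed within its interval. The median height was 7.41 with 30 or more CpGs. The share of members upstream of the start was 42.5% with GENCODE starts and 42.9% within 500 bp. The share of CpG-rich starts with a member was 28.0% within 500 bp of the start, 31.4% with 30 or more CpGs, 27.9% with no WT peak within 1000 bp and 31.4% without chromosome 8, which was left out as a setting after the data were seen. Heights in WT cells at the members' positions were not analysed here, so the size of a difference between genotypes at a member is not known. With 1 library and 1 clone per genotype, the spread between cultures could not be measured.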
